A study of Danio rerio with 14 samples.

Results

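Hair cells are the mechanosensory cells of the inner ear and, in fish, of the neuromasts of the lateral line on the body surface. They arise under the proneural transcription factor Atoh1 from a pool of supporting cells, and Notch signalling limits how many cells of that pool take the hair cell fate. A mature hair cell carries a bundle of actin-filled stereocilia joined by tip links that pull on transduction channels, and it passes the signal to sensory neurons at ribbon synapses. In zebrafish larvae the lateral line hair cells lie open to the surrounding water.

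The genes described here are 8 hair cell genes: the transcription factors atoh1a, atoh1b and pou4f3, the bundle myosins myo6b and myo7aa, the tip link cadherin cdh23, the calcium-binding protein gene s100t, and tmc2b, which encodes a part of the transduction channel. They were selected on their names from a list that was drawn up with the values of these same arrays in view, so their differences between groups are given as a description. Probes were assigned to a gene by the symbol of the accession on the array, which named 25978 of the 43603 probes and 13373 genes. Of the 8 genes, 7 were matched, by 11 probes, and all 11 passed the filter on dim probes. No probe was matched to tmc2b, which was not analysed here.

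RNA came from whole larvae of wild type AB zebrafish, and was hybridised to 14 1-colour arrays. The control group (4 arrays) was kept in E3, a saline for zebrafish embryos, with 0.05% DMSO as the solvent. The effluent groups were kept in E3 with reconstituted secondary effluent of a Tucson wastewater plant, at its original strength (1x, 5 arrays) or diluted to 0.5x (5 arrays), with DMSO at no more than the same 0.05%. Exposure ran from 3 h after fertilisation to day 5, and each replicate is the pooled larvae of 1 well that held 25 to 30 embryos. The p-values therefore measure the spread between wells. Where a fit has no term for scan day or slide, that spread also holds differences between scan days and slides. In whole larvae, fewer hair cells and less RNA per hair cell cannot be told apart, and several of these genes are also active elsewhere, such as atoh1a in the developing cerebellum.

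Levels are log2 signals less the 75th percentile of the array, so that 0 is the 75th percentile and 1 unit is a doubling. Levels of different probes cannot be set against each other. Overlap between groups is given on this scale, unless signals before scaling are named. Differences between groups are differences of these levels, given with their standard error and with the adjusted p of limma over 38807 probes, and a probe is called where that p is under 0.05. Arrays had median processed signals of 131 to 254, with 85.4% to 90.9% of the probes well above background. The arrays were scanned on 2 days. Control replicates 1 and 2, 1x replicates 1 to 3 and 0.5x replicate 1 were scanned on day 1, and the other 8 arrays on day 2. Control replicates 1 and 2 stood apart from all other arrays on the first principal component (38.1% of the variance), at -120 and -80.5 against -17.5 to 44.4. They also held the lowest levels of liver and exocrine pancreas genes, as given below with the results they touch. The differences of the hair cell genes from control are therefore given for all arrays, and then within each scan day and without those 2 control arrays. The fit without those 2 arrays sets control arrays of day 2 alone against effluent arrays of both days. Group and scan day are therefore not balanced in it.

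Of the 7 genes measured, atoh1b stood lowest relative to control. Its levels were -2.81, -2.90, -3.90 and -3.88 in the 4 control arrays. They were -4.74, -4.41, -4.43, -4.35 and -4.57 at 1x, and -4.87, -4.76, -5.17, -4.96 and -5.07 at 0.5x. On this scale every effluent array lay below every control array. Every 0.5x array lay below every 1x array, the nearest (-4.76 and -4.74) by a small margin. Before scaling, the 1x signals (40.8 to 62.4) overlapped those of control (56.3 to 128). The 0.5x signals (22.2 to 46.4) lay below control and overlapped those of 1x. Mean signals were 83.6 in control, 31.6 at 0.5x and 53.7 at 1x. Whether the scaling had a part in the atoh1b differences was not tested. In zebrafish, atoh1b acts with atoh1a in the formation of the first hair cells of the ear. The 1x mean was 2.18-fold lower than control (difference -1.12 ± 0.21, adjusted p = 0.00339). The 0.5x mean was 3.01-fold lower (-1.59 ± 0.21, adjusted p = 0.000812). The difference between 1x and 0.5x was 0.47 ± 0.20 and was not called (adjusted p = 0.191).

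The size of the atoh1b difference depended on which control arrays were used. On day 1, with control replicates 1 and 2, it was -1.67 ± 0.14 at 1x (adjusted p = 0.00256) and -2.01 ± 0.19 at 0.5x (adjusted p = 0.00876). On day 2, with control replicates 3 and 4, it was -0.57 ± 0.16 at 1x and not called (adjusted p = 0.0797), and -1.10 ± 0.14 at 0.5x (adjusted p = 0.00795). Without control replicates 1 and 2 both differences were called, at -0.61 ± 0.14 for 1x (adjusted p = 0.0182) and -1.08 ± 0.14 for 0.5x (adjusted p = 0.00281). The difference between 1x and 0.5x, which does not involve the control arrays, stayed at 0.47 in that fit and was called with a smaller standard error (0.10, adjusted p = 0.0178). It was smaller and not called with scan day as a term (0.33, adjusted p = 0.361) or slide as a term (0.20, adjusted p = 0.66). With scan day as a term the differences from control were -1.16 and -1.49, and with slide as a term -1.22 and -1.42, all of them called. With normexp background correction they were -0.86 and -0.83, both called, and the difference between 1x and 0.5x was -0.03 (adjusted p = 0.902). Within single slides, each of which held 1 control array, the atoh1b difference ran from -1.93 to -0.56 at 1x on 3 slides and from -1.97 to -0.86 at 0.5x on 3 slides. Thus the level lay below control on each slide and each day, by a smaller amount where control replicates 3 and 4 were the reference.

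The paralogue atoh1a, which in zebrafish acts in hair cell formation of both the ear and the lateral line, was not called with all arrays. Its brighter probe had levels of -3.15, -2.85, -3.39 and -3.53 in control, -2.95, -2.81, -2.93, -3.39 and -3.63 at 1x, and -2.96, -3.72, -3.56, -3.55 and -3.58 at 0.5x. The groups overlapped throughout, with differences of 0.09 ± 0.20 at 1x (95% interval -0.34 to 0.51, adjusted p = 0.765) and -0.25 ± 0.20 at 0.5x (-0.67 to 0.18, adjusted p = 0.41). The dimmer atoh1a probe differed by 0.34 ± 0.23 at 1x and by -0.38 ± 0.23 at 0.5x, neither of them called. On that probe 1x lay 0.72 ± 0.22 above 0.5x (adjusted p = 0.0796). The difference was called with the replicate number as a block (0.72, adjusted p = 0.038). It was 0.50 with scan day as a term (adjusted p = 0.107) and 0.41 with slide as a term (adjusted p = 0.199). With normexp background correction it was 0.15 (adjusted p = 0.376). Within days it was 0.65 on day 2 (adjusted p = 0.0913) and 0.10 on day 1, which held 1 array at 0.5x. For the brighter probe the 1x difference from control was 0.10 on day 1, -0.05 on day 2 and 0.32 without control replicates 1 and 2. At 0.5x it was 0.03, -0.14 and -0.02. The dimmer probe gave 0.39, 0.20 and 0.48 at 1x, and 0.29, -0.45 and -0.25 at 0.5x, and none of these differences was called for either probe.

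pou4f3, a POU-domain factor needed in mice for hair cells to mature and survive, had levels of -4.16, -4.36, -6.17 and -5.42 in control. It was at -4.93, -4.89, -4.82, -6.20 and -6.29 at 1x, and at -4.96, -5.54, -5.95, -5.88 and -5.54 at 0.5x. The probe was dim, and was well above background in 3 of the 4 control arrays and in all 10 effluent arrays. The spread within a group was as wide as any gap between groups, and neither difference was called (-0.40 ± 0.42 at 1x, adjusted p = 0.497; -0.55 ± 0.42 at 0.5x, adjusted p = 0.382). That spread lay along the scan days. All 6 arrays of day 1 (-4.96 to -4.16) were above all 8 arrays of day 2 (-6.29 to -5.42).

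**Figure D1:**
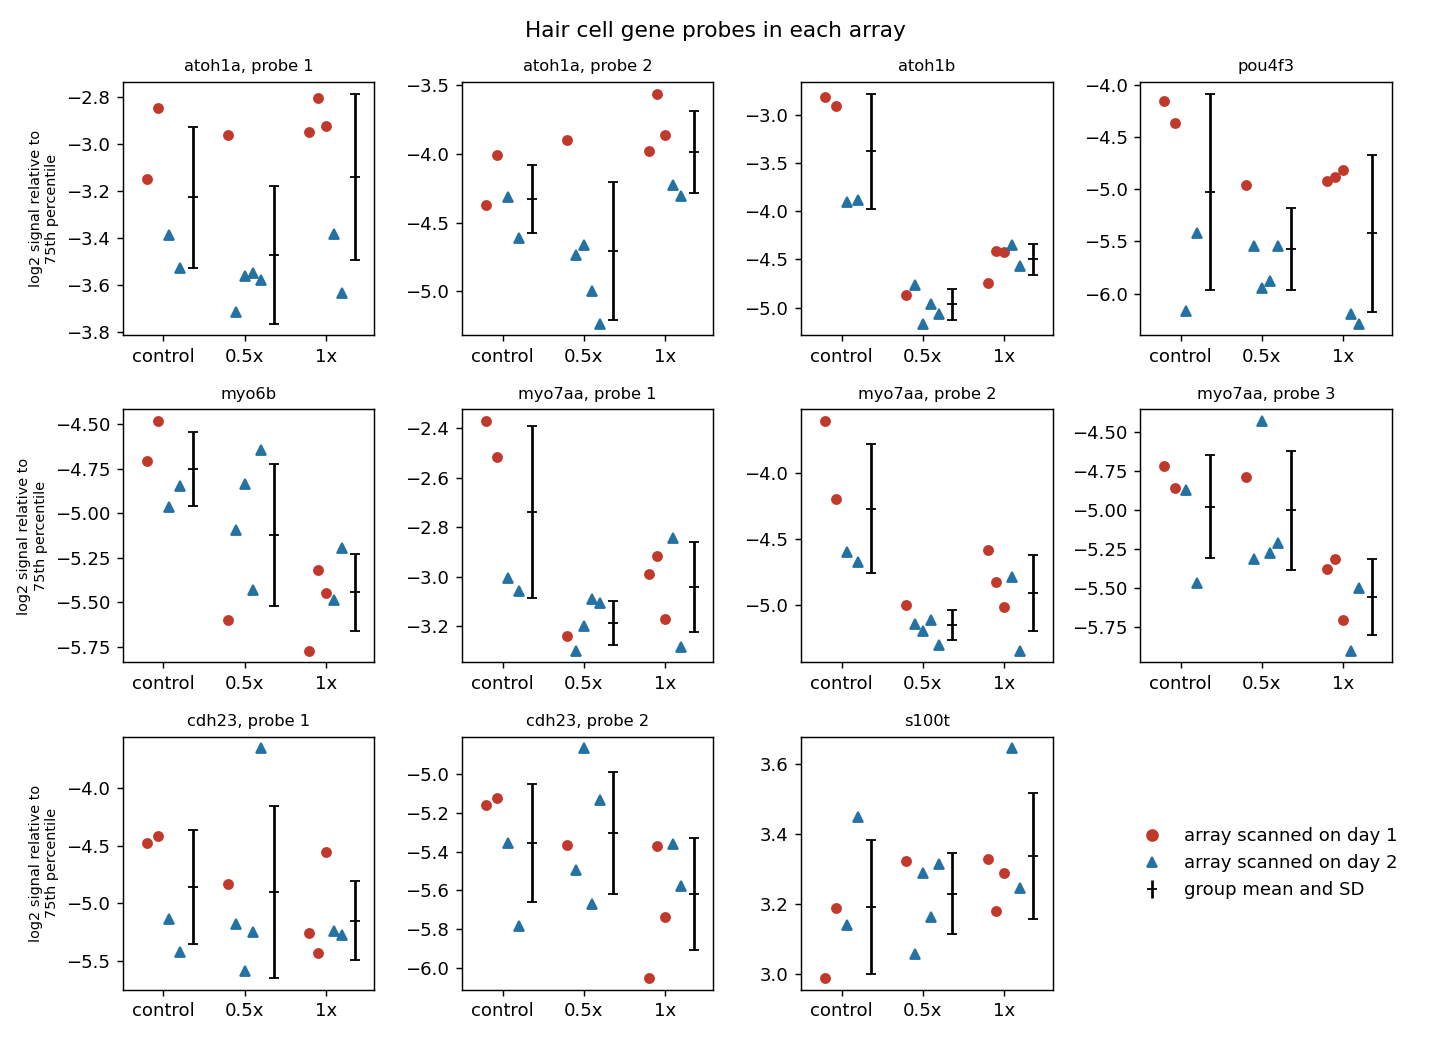
Each point is 1 array, with the log2 signal relative to the array's 75th percentile on the vertical axis and control, 0.5x and 1x on the horizontal axis, 1 panel per probe; circles are arrays scanned on day 1, triangles day 2, and bars the group mean and SD (n = 4, 5 and 5). In the atoh1b panel all effluent arrays lie below all control arrays, and in the pou4f3 panel all day 1 arrays lie above all day 2 arrays; panels have their own vertical scales.

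Scan day was tested as a term beside group for all genes. Of the 7 genes, pou4f3 and atoh1a were lower on day 2 than on day 1, and for both the days did not overlap. The day difference was -1.26 ± 0.15 for pou4f3 (adjusted p = 0.000106), a 2.40-fold gap, and -0.57 ± 0.08 for the brighter atoh1a probe (adjusted p = 0.000365). The dimmer atoh1a probe also differed by day (-0.55 ± 0.14, adjusted p = 0.0136), as did 1 of the 3 myo7aa probes (-0.40 ± 0.14, adjusted p = 0.0489). Over all 12811 genes, 11.2% were called lower and 11.7% higher on day 2, and 6.9% had days that did not overlap. For atoh1b the day difference was -0.35 ± 0.16 and was not called (adjusted p = 0.132). With scan day as a term, pou4f3 was called lower at 1x (-0.52, adjusted p = 0.0292) and was not called at 0.5x (-0.17, adjusted p = 0.514). With slide as a term neither was called (-0.46, adjusted p = 0.0599, and -0.19, adjusted p = 0.513). Within days its 1x difference was -0.62 on day 1 (adjusted p = 0.00982) and -0.45 on day 2 (adjusted p = 0.306). At 0.5x it was -0.70 on day 1 (adjusted p = 0.0262), where 1 array of that group was scanned, and 0.07 on day 2 (adjusted p = 0.919). The pou4f3 differences turned positive without control replicates 1 and 2, at 0.37 ± 0.43 for 1x (adjusted p = 0.554) and 0.22 ± 0.43 for 0.5x (adjusted p = 0.867). In that fit all control arrays were of day 2, when pou4f3 was lower, while the effluent arrays were of both days. Whether this had a part in the change of sign was not tested.

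Among the genes of the bundle, myo6b was called lower at 1x. Its protein is a myosin that holds the stereocilia bundle to the hair cell, and its loss in zebrafish disrupts the bundle. The levels were -4.71, -4.48, -4.96 and -4.84 in control, -5.77, -5.32, -5.45, -5.49 and -5.19 at 1x, and -5.60, -5.10, -4.84, -5.43 and -4.64 at 0.5x. On this scale every 1x array lay below every control array, while the 0.5x arrays overlapped both other groups. The probe was dim, and its signals overlapped between groups before scaling, with means of 31.2 in control, 28.1 at 0.5x and 27.7 at 1x. The lowest signal well above background lay at a mean level of -6.02 in control, -6.34 at 0.5x and -6.54 at 1x. Whether this had a part in the myo6b difference was not tested. The 1x difference was -0.69 ± 0.19, a 1.62-fold lower mean (adjusted p = 0.0163), and the 0.5x difference was -0.37 ± 0.19 (adjusted p = 0.19). At 1x it was -0.92 ± 0.17 on day 1 (adjusted p = 0.00937) and -0.43 ± 0.24 on day 2 (adjusted p = 0.309). The call was also lost without control replicate 2 (-0.61, adjusted p = 0.0515) and without control replicates 1 and 2 (-0.54 ± 0.23, adjusted p = 0.131). At 0.5x the difference was -1.01 ± 0.23 on day 1 (adjusted p = 0.0272), -0.10 ± 0.21 on day 2 (adjusted p = 0.876) and -0.22 ± 0.23 without control replicates 1 and 2 (adjusted p = 0.728).

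myo7aa encodes another bundle myosin, needed in zebrafish for transduction, and its 3 probes gave different results. The brightest had levels of -2.37, -2.52, -3.01 and -3.06 in control, -2.99, -2.91, -3.17, -2.84 and -3.28 at 1x, and -3.24, -3.30, -3.20, -3.09 and -3.10 at 0.5x. On this scale all 0.5x arrays lay below all control arrays, the nearest by a small margin. Neither 1x (-0.30 ± 0.15, adjusted p = 0.132) nor 0.5x (-0.45 ± 0.15, adjusted p = 0.0664) was called. The second probe was called lower at 1x (-0.64 ± 0.20, adjusted p = 0.0288) and at 0.5x (-0.88 ± 0.20, adjusted p = 0.0179). The third was called lower at 1x (-0.58 ± 0.20, adjusted p = 0.0444) and showed a difference of -0.02 ± 0.20 at 0.5x (adjusted p = 0.944). For the brightest probe the differences on day 2 were -0.03 ± 0.16 at 1x and -0.14 ± 0.14 at 0.5x, against -0.58 ± 0.13 and -0.79 ± 0.17 on day 1, both called there. They were -0.01 ± 0.13 and -0.15 ± 0.13 without control replicates 1 and 2. The calls of the other probes were likewise not kept on day 2 or without those 2 arrays. For the second probe the day 2 differences were -0.43 at 1x (adjusted p = 0.199) and -0.55 at 0.5x (adjusted p = 0.115). With control replicates 1 and 2 left out they were -0.27 (adjusted p = 0.267) and -0.51 (adjusted p = 0.174), and on day 1 they were -0.90 and -1.10, both called. For the third probe the 1x difference was -0.68 on day 1 (adjusted p = 0.0166), -0.53 on day 2 (adjusted p = 0.346) and -0.39 without those arrays (adjusted p = 0.283). Its 0.5x difference was -0.0033, 0.11 and 0.17 in the same order, none of them called. With quantile normalization the 1x calls of the second probe (-0.51, adjusted p = 0.0529) and of the third (-0.44, adjusted p = 0.0799) were lost, and the 0.5x call of the second was kept (adjusted p = 0.0324).

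cdh23 encodes the cadherin that forms the upper part of the tip link. Neither of its probes was called in any comparison with the 75th percentile scaling of the processed signal and all arrays. The brighter probe ran from -5.42 to -4.42 in control, from -5.43 to -4.55 at 1x and from -5.59 to -3.65 at 0.5x, with differences of -0.29 ± 0.33 and -0.04 ± 0.33. Their 95% intervals, -1.0 to 0.43 at 1x and -0.76 to 0.67 at 0.5x, are wide enough to hold differences of the size seen for myo6b. The dimmer probe differed by -0.27 ± 0.19 at 1x and by 0.05 ± 0.19 at 0.5x. With normexp background correction the dimmer probe was called lower at 1x (-0.48, adjusted p = 0.00575). The sign of the brighter probe turned with the arrays used. It was -0.63 on day 1, 0.02 on day 2 and 0.13 without control replicates 1 and 2 at 1x, and -0.39, 0.36 and 0.38 at 0.5x. The dimmer probe gave -0.58, 0.10 and -0.05 at 1x, and -0.23, 0.28 and 0.27 at 0.5x, and none of these was called for either probe.

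s100t, whose calcium-binding product marks hair cells in zebrafish larvae, had the narrowest range of levels over the 14 arrays. Its levels were 2.99, 3.19, 3.14 and 3.45 in control, 3.33, 3.18, 3.29, 3.65 and 3.24 at 1x, and 3.32, 3.05, 3.29, 3.16 and 3.31 at 0.5x. The groups overlapped. The difference was 0.15 ± 0.12 at 1x, with a 95% interval of -0.11 to 0.41 (adjusted p = 0.376), and 0.04 ± 0.12 at 0.5x, with an interval of -0.22 to 0.30 (adjusted p = 0.851). These intervals do not reach the difference measured for atoh1b or myo6b at 1x, or for atoh1b at 0.5x. The s100t probe was bright, with mean signals of 7683 in control, 9270 at 0.5x and 12250 at 1x, while the probes of atoh1b and myo6b were dim. Whether the scaling or the lowest signal well above background had a part in this contrast was not tested. The difference was 0.18 on day 1, 0.15 on day 2 and 0.04 without control replicates 1 and 2 at 1x, and 0.24, -0.09 and -0.07 at 0.5x, none of them called.

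**Figure D2:**
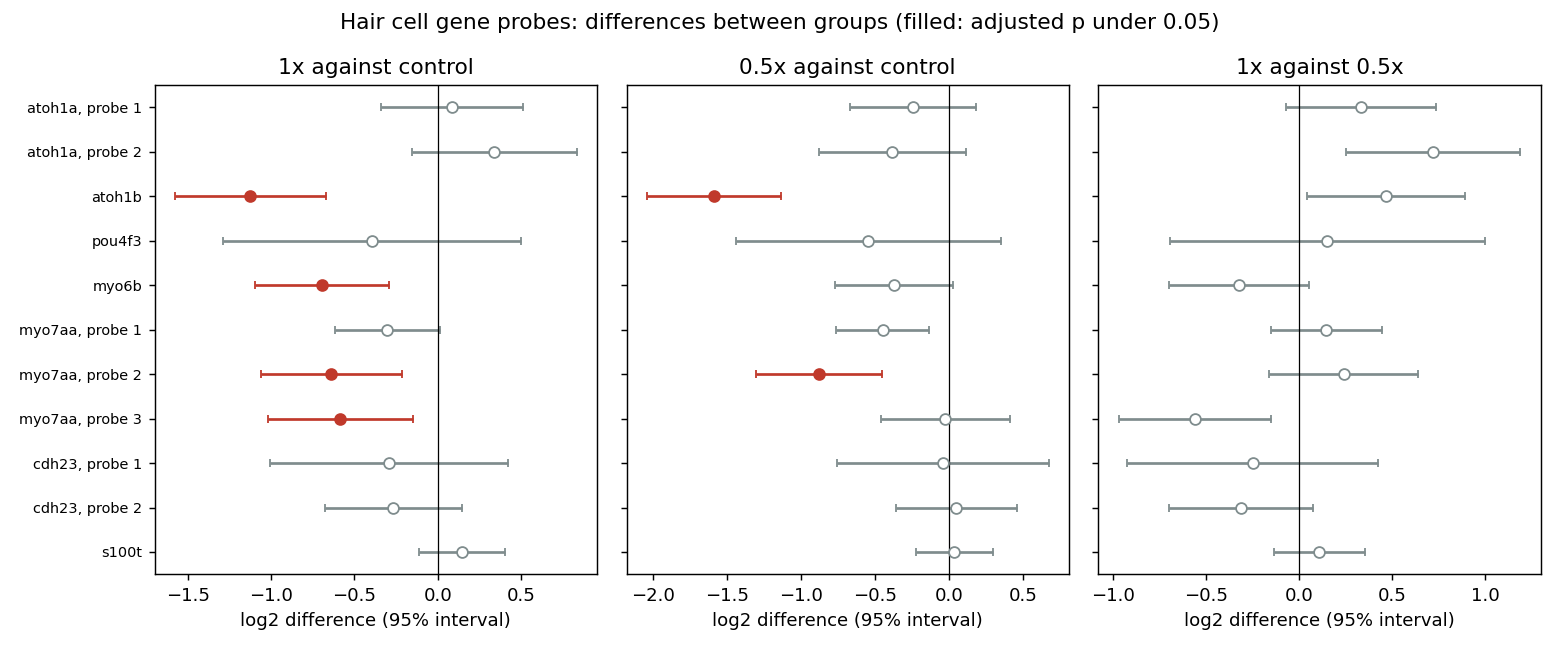
The horizontal axis is the log2 difference between 2 groups with its 95% interval from limma, for the 11 probes of the 7 genes, 1 panel per comparison; filled points have an adjusted p under 0.05. At 1x the filled points are atoh1b, myo6b and 2 of 3 myo7aa probes, at 0.5x atoh1b and 1 myo7aa probe, and no point is filled for 1x against 0.5x.

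Counted with 1 probe per gene, the one with the highest mean, 2 of the 7 genes were called lower at 1x and none higher, where over all genes 16.3% were called lower and 10.3% higher. At 0.5x 1 of 7 was called lower, against 4.33% lower and 4.37% higher over all genes. Groups did not overlap for 2 of 7 genes at 1x and for 2 of 7 at 0.5x, against 20.3% and 10.9% of all genes. Between 1x and 0.5x limma called 0 of 7 genes (1 at an unadjusted p under 0.05, atoh1b), against 2.65% lower and 1.67% higher, and the groups did not overlap for 1 gene, against 10.2%. The median difference of the 7 genes was -0.30 at 1x and -0.37 at 0.5x, beside -0.05 and -0.04 over all genes. Because the list was drawn up with these values in view, nothing is read from these counts. Both effluent groups were set against the same 4 control arrays.

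The split by day changed the counts. On day 1, 4 of the 7 genes were called lower at 1x and 4 at 0.5x (atoh1b, pou4f3, myo6b and myo7aa in each), where 26.4% and 16.7% of all genes were called lower. On day 2, limma called 0 of 7 at 1x (1 at an unadjusted p under 0.05) and 1 at 0.5x, against 2.01% and 0.734% of all genes. Without control replicates 1 and 2, atoh1b was the gene called in each comparison with control, against 5.59% of all genes lower at 1x and 0.57% at 0.5x.

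**Figure D3:**
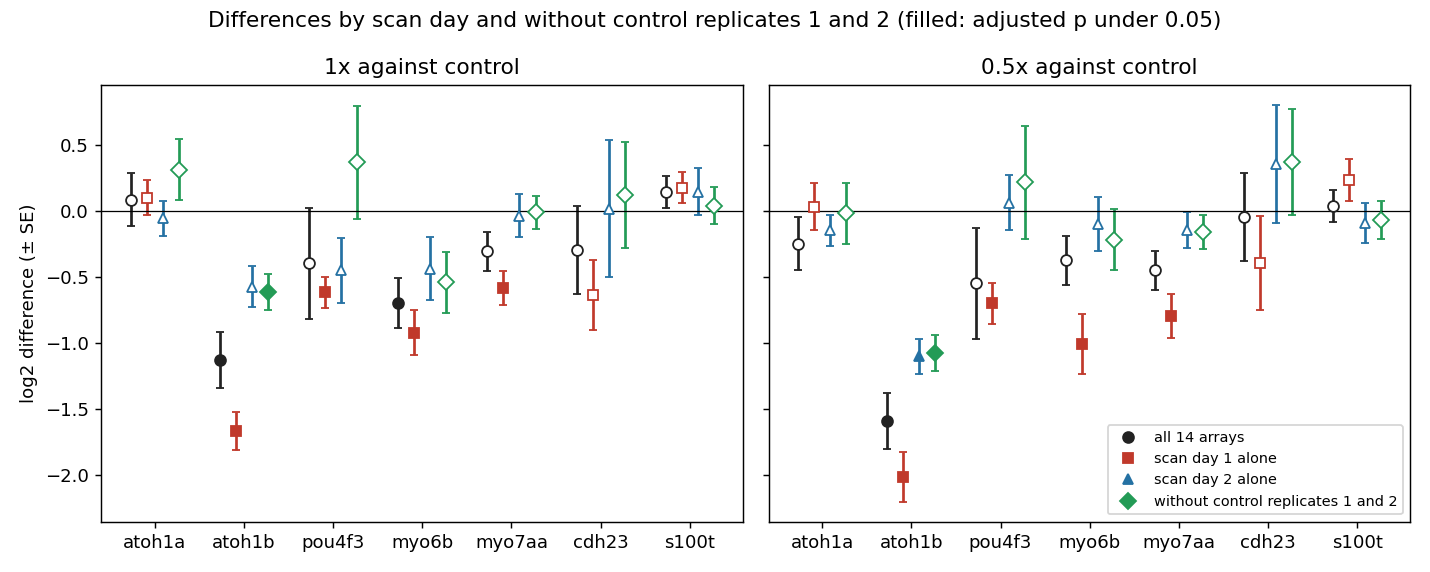
The vertical axis is the log2 difference from control with its standard error, for the brightest probe of each gene, with all 14 arrays (black circles), day 1 alone (red squares), day 2 alone (blue triangles), and without control replicates 1 and 2 (green diamonds); filled symbols have an adjusted p under 0.05. atoh1b is the gene with filled symbols in all 4 settings at 0.5x and in 3 of 4 at 1x. All symbols of myo6b and myo7aa lie below 0, while those of pou4f3 lie below 0 in some settings and above 0 in others.

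Other hair cell genes were examined through 5 lists of transcription factors, transduction and tip link genes, bundle and myosin genes, synapse and channel genes, and calcium-binding and other genes. They were matched by 49 genes on the array, of which 47 passed the filter. At 1x 10 of the 47 were called lower and 3 higher, and their median difference was -0.14. At 0.5x 3 were called lower and 1 higher, with a median of -0.11. Beside 16.3% and 10.3% of all genes at 1x, and 4.33% and 4.37% at 0.5x, these shares (21.3% lower and 6.38% higher, then 6.38% and 2.13%) lay near the background. The lists, here and below, were chosen with earlier results of these data known, so their counts are given as a description. Between 1x and 0.5x 1 gene, myo3a, was called lower at 1x (-0.48 ± 0.11, adjusted p = 0.0241). It encodes a myosin of the stereocilia tips.

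Among the transcription factors, 2 of 12 fell and 1 rose at 1x, beside 16.3% and 10.3% of all genes. barhl1b, a homeobox gene, was at -3.89, -3.75, -4.02 and -4.17 in control and at -4.79, -4.71, -4.51, -4.58 and -4.38 at 1x. On this scale the groups did not overlap (-0.64 ± 0.14, adjusted p = 0.00581), while their signals before scaling did. Whether the scaling had a part was not tested. lhx3, a LIM-homeobox gene, fell by 0.76 ± 0.22 on the log2 scale (adjusted p = 0.0225). gfi1ab, a zinc finger repressor whose mouse counterpart hair cells need to survive, rose by 0.44 ± 0.12 (adjusted p = 0.0162), with all 1x arrays (-2.28 to -2.10) above all control arrays (-2.85 to -2.48). At 0.5x 1 of 12 fell, beside 4.33% of all genes. This was insm1b (-0.50 ± 0.13, adjusted p = 0.0325), whose 2 probes differed in opposite directions at 1x. On day 2, limma called none of the 12 at either concentration (3 at an unadjusted p under 0.05 at 1x and 1 at 0.5x), and the 1x differences were -0.38 for barhl1b, -0.20 for lhx3 and 0.41 for gfi1ab.

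Of the 9 transduction and tip link genes measured, 1 fell at 1x, beside 16.3% of all genes. This was cib2, which encodes a calcium-binding part of the transduction complex (-0.32 ± 0.11, adjusted p = 0.0444), and its other probe differed in the other direction. At 0.5x limma called none of the 9 (2 at an unadjusted p under 0.05), beside 4.33% of all genes lower and 4.37% higher. The brightest that were not called, adgrv1 and tmie, differed by 0.04 ± 0.19 and -0.05 ± 0.10 at 1x.

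Of the 7 bundle and myosin genes, 1 fell at both concentrations, beside 16.3% of all genes lower at 1x and 4.33% at 0.5x. fscn2b, which encodes a fascin that bundles actin in stereocilia, was at -2.95, -3.21, -3.60 and -3.71 in control. It was at -4.08, -4.55, -4.23, -4.43 and -4.07 at 1x, and at -4.62, -4.24, -4.47, -4.20 and -3.97 at 0.5x. On this scale no effluent array reached a control array. Before scaling, the 1x signals overlapped those of control, and whether the scaling had a part was not tested. The difference was -0.90 ± 0.18 at 1x (adjusted p = 0.00396) and -0.93 ± 0.18 at 0.5x (adjusted p = 0.00715). On day 2 it was -0.59 (adjusted p = 0.109) and -0.56 (adjusted p = 0.118), and without control replicates 1 and 2 it was -0.62 (adjusted p = 0.0466) and -0.64 (adjusted p = 0.105).

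Of the 12 synapse and channel genes, 5 fell and none rose at 1x, beside 16.3% and 10.3% of all genes. The median difference of the 12 was -0.34, beside -0.05 over all genes. ctbp2a, whose products include the Ribeye protein of synaptic ribbons, fell by 0.39 ± 0.10 (adjusted p = 0.0155). Which product its probe reads was not examined. The calcium sensors cabp1b and cabp1a fell by 0.59 ± 0.17 (adjusted p = 0.0204) and by 0.51 ± 0.15 (adjusted p = 0.0263). The calcium pump gene atp2b1a fell by 0.52 ± 0.16 (adjusted p = 0.0304). At 0.5x 1 of 12 fell, beside 4.33% of all genes. This was cacna1da, the gene of a voltage-gated calcium channel of the hair cell synapse (-0.78 ± 0.22, adjusted p = 0.0425), named here after its values were seen. On day 1, 8 of the 12 were called lower at 1x (the share of all genes on each day is given above). On day 2 limma called 0 (0 at an unadjusted p under 0.05). Without control replicates 1 and 2 it also called 0 of 12 at 1x (2 at an unadjusted p under 0.05).

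Of the 7 calcium-binding and other genes, 2 rose and 1 fell at 1x, beside 10.3% and 16.3% of all genes. gipc3, an adaptor gene linked to deafness in mice and humans, was at -4.03, -4.18, -4.10 and -4.15 in control. All 5 arrays at 1x (-3.90 to -3.53) and all 5 at 0.5x (-3.96 to -3.55) lay above that range, and the difference was 0.37 ± 0.11 (adjusted p = 0.0268) and 0.38 ± 0.11 (adjusted p = 0.0494). pvalb9, a parvalbumin gene, rose by 0.78 ± 0.26 at 1x (adjusted p = 0.0378). Its control levels were 3.13, 3.45, 4.60 and 4.60, and the difference was 0.13 without the first 2 of them (adjusted p = 0.551). tspan13b, a tetraspanin gene, fell by 0.29 ± 0.10 (adjusted p = 0.0338).

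Over the 47 genes, the counts differed with the control arrays used. The 13 calls at 1x went down to 5 without control replicate 1, to 3 without control replicate 2, and to 6, 6 and 5 without 1x replicates 1, 2 and 3. The 4 calls at 0.5x went up to 12 without control replicate 4, and were between 1 and 6 without any other single array. Calls over all 38807 probes moved as well. At 1x they went from about 11180 to 5964, 7301, 8371, 7867 and 6956 in the same order. At 0.5x they went from 3603 to 9660 without control replicate 4, and were between 1113 and 6151 without any other single array. On day 1 19 were called lower and 4 higher at 1x, against 26.4% and 17.8% of all genes, and on day 2 0 lower (4 at an unadjusted p under 0.05) and 1 higher, against 2.01% and 2.06%. Without those 2 control arrays 1 was called lower at 1x, fscn2b, and none higher (8 lower and 5 higher at an unadjusted p under 0.05). At 0.5x limma then called 0 (3 lower and 4 higher at an unadjusted p under 0.05). Over all 38807 probes that fit called 2256 lower and 2021 higher at 1x, and 231 lower and 375 higher at 0.5x.

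Notch signalling restrains atoh1 genes in the sensory patches and acts in many other tissues of the larva. Of 24 Notch pathway genes, 9 fell and none rose at 1x, and 5 fell and none rose at 0.5x, with medians of -0.23 and -0.30. Over all genes 16.3% were called lower at 1x and 4.33% at 0.5x. The mean over the list, with each gene centred on its mean over the 14 arrays, was 0.33 in both control replicates 1 and 2, 0.08 and 0.13 in control replicates 3 and 4, and -0.14 to -0.01 in the effluent arrays. mib1 encodes the ubiquitin ligase that activates Delta ligands, and its loss in zebrafish gives too many hair cells at the cost of supporting cells. It was at -1.87, -1.97, -2.11 and -2.15 in control, at -2.95, -3.13, -3.33, -3.00 and -2.85 at 1x, and at -3.01, -2.97, -3.28, -3.10 and -2.93 at 0.5x. The fall was 1.03 ± 0.12 on the log2 scale at 1x (adjusted p = 0.000209) and 1.04 ± 0.12 at 0.5x (adjusted p = 0.000268). Of its 3 probes, 2 were lower and 1 was higher at 1x. The mib1 difference was called on each scan day and without control replicates 1 and 2, where it was -0.92 and -0.93.

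The repressor gene heyl fell by 0.64 ± 0.13 at 1x (adjusted p = 0.00462) and by 0.77 ± 0.13 at 0.5x (adjusted p = 0.00375). her9, another repressor of the hairy family, fell by 0.53 ± 0.13 (adjusted p = 0.0095) and by 0.75 ± 0.13 (adjusted p = 0.00359). The receptor gene notch3 fell by 0.62 ± 0.13 at 1x (adjusted p = 0.00609). Without control replicates 1 and 2, 3 of the 24 were called lower at each concentration (the share of all genes lower in that fit is given above). her9 was among them in each, at -0.69 (adjusted p = 0.0112) and -0.91 (adjusted p = 0.0066). dld, a Delta ligand gene and the brightest that was not called, differed by 0.22 ± 0.10 at 1x.

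Of 24 genes of the supporting cells, the otic epithelium and the lateral line primordium, 5 rose and 1 fell at 1x, and 1 rose at 0.5x. Over all genes 10.3% were called higher and 16.3% lower at 1x, and 4.37% higher at 0.5x. ackr3b, a chemokine receptor gene of the primordium, rose by 0.65 ± 0.11 at 1x (adjusted p = 0.00251) and by 0.39 ± 0.11 at 0.5x (adjusted p = 0.0482). stm, which encodes the otolith protein Starmaker, was at 2.02, 2.29, 2.07 and 2.18 in control and at 2.76, 2.33, 2.79, 3.16 and 2.71 at 1x. It rose by 0.61 ± 0.14 at 1x (adjusted p = 0.00721), with all 5 of its probes higher, differed by 0.09 ± 0.14 at 0.5x (adjusted p = 0.655), and was higher at 1x than at 0.5x (0.51 ± 0.13, adjusted p = 0.036). fgf3, a growth factor gene of the primordium and the ear, rose by 0.47 ± 0.16 at 1x (adjusted p = 0.0403), and the transcription factor gene ebf3a fell by 0.58 ± 0.18 (adjusted p = 0.0272). Without control replicates 1 and 2, 2 of the 24 were called higher at 1x, stm (0.62, adjusted p = 0.0363) and ackr3b (0.43, adjusted p = 0.0223). Over all 38807 probes, 2021 were called higher at 1x in that fit.

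**Figure D4:**
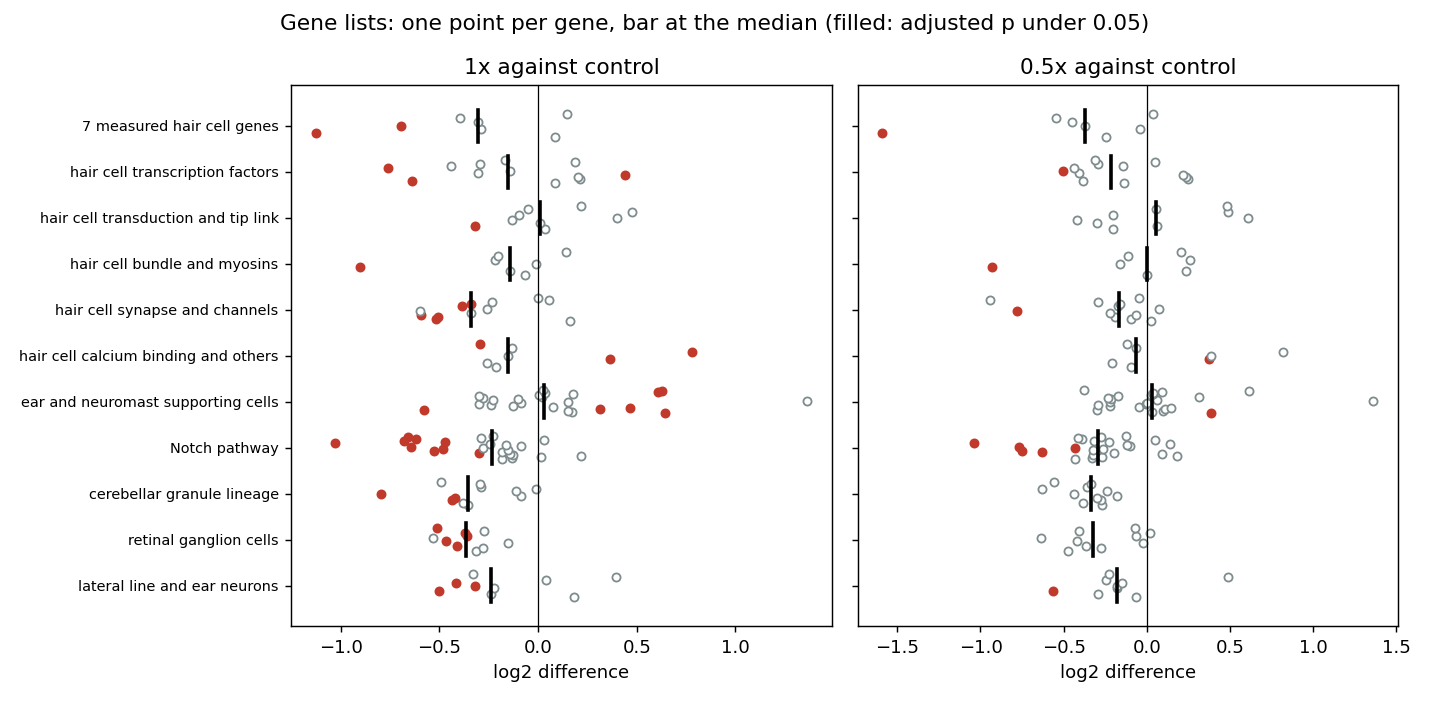
Each point is 1 gene, by its probe with the highest mean, placed by its log2 difference from control at 1x (left) and 0.5x (right), in rows by gene list; black bars are list medians and filled points have an adjusted p under 0.05. At 1x most points lie below 0 in every list shown, such as the Notch list (21 of 24), except the transduction (4 of 9) and supporting cell (9 of 24) lists. The median over all genes is -0.05 at 1x.

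Genes of other tissues that use some of these markers were examined in the same way. Of 11 genes of cerebellar granule cells, where atoh1 genes are active, 3 were called lower at 1x, among them pax6b (-0.80 ± 0.19, adjusted p = 0.00982). Of 10 genes of retinal ganglion cells 5 were called lower, and of 9 genes of lateral line and ear neurons 3. The lowest of these 9 was neurog1, the proneural gene of the ear neurons (-0.50 ± 0.16, adjusted p = 0.0297). Differences at 1x lay below 0 for 6 of the 9, and the highest was 0.40. Over all genes 16.3% were called lower at 1x. On the mean over a list, with each gene centred on its mean over the 14 arrays, the granule cell genes ran from -0.10 to 0.62 in control, from -0.13 to -0.03 at 1x and from -0.15 to -0.09 at 0.5x. The same means ran from -0.07 to 0.52, -0.18 to -0.06 and -0.12 to 0.01 for the ganglion cell genes, and from -0.09 to 0.36, -0.13 to 0.01 and -0.12 to 0.01 for the ear and lateral line neurons. In all 3 lists the high values were control replicates 1 and 2. Without those arrays limma called none of these 30 genes at 1x (1, 1 and 0 lower and 0, 0 and 1 higher at an unadjusted p under 0.05).

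The mean over the 7 hair cell genes was likewise high in those arrays, at 0.60 and 0.64 in control replicates 1 and 2 and -0.31 to 0.11 in all other arrays. This did not hold for each gene, since s100t had its lowest level of all arrays in control replicate 1, and the brighter atoh1a probe lay lower there than in every effluent array of day 1. The lowest signal well above background lay at -5.61 and -5.94 in control replicates 1 and 2, and between -6.67 and -6.04 in all other arrays. Whether this had a part in the mean over the 7 genes was not tested. Control replicates 1 and 2 had the lowest list means of 12 hepatocyte genes (-1.91 and -1.08, against 0.09 to 0.42 elsewhere) and of 15 exocrine pancreas genes (-2.62 and -1.81, against -0.43 to 1.21). Hepatocyte list means ran from -1.91 to 0.41 in control, 0.20 to 0.42 at 1x and 0.09 to 0.30 at 0.5x, and exocrine pancreas means from -2.62 to 1.21, -0.43 to 0.33 and 0.37 to 0.95. At 1x 6 of the 12 hepatocyte genes were called higher, beside 10.3% of all genes. Of the 15 pancreas genes 0 were called higher at 1x (0 at an unadjusted p under 0.05). Their differences from control all lay above 0 in both effluent groups, with medians of 0.42 at 1x and 1.20 at 0.5x. Whether the levels of these other tissues had a part in the hair cell gene differences was not tested. atoh1b was also lower than control in both effluent groups without those 2 arrays, as given above, but that fit does not test this. Pancreas means were 0.75 and 1.21 in control replicates 3 and 4. They were -0.43 to 0.33 at 1x and 0.37 to 0.95 at 0.5x.

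The pattern of each gene over the 14 arrays was set against 12300 other genes, as a description only, since the arrays share scan days and the 2 control arrays that stood apart. barhl1b was the gene most like myo6b, at a Pearson correlation of 0.938 over 14 arrays and of 0.877 after the group means were removed. For atoh1b the closest were ppp1r3c2b (0.967), zgc:193593 (0.943) and fibpb (0.94), at 0.805, 0.817 and 0.781 after the group means were removed. atoh1a was closest to stag2a (0.96), phox2bb (0.951) and akap12b (0.949), and pou4f3 to ppp1r12c (0.955), tcf3b (0.952) and si:ch211-212d10.2 (0.947). Next to barhl1b, myo6b was closest to ltk (0.899) and zgc:174623 (0.898). After the group means were removed these were at 0.901 and 0.794, so that ltk lay above barhl1b. myo7aa was closest to fbxo36b (0.953), rem1 (0.936) and zic1 (0.931). cdh23 and s100t had lower best values, with znf710a (0.842), zgc:171459 (0.787) and sema3bl (0.779) for cdh23, and ano10a (0.863), crkl (0.857) and hmbsa (0.836) for s100t. Among the 7 genes themselves, atoh1b and myo7aa (0.851) and atoh1a and pou4f3 (0.756) were the most alike, and s100t had a negative correlation with each of the other 6 (-0.359 to -0.0437).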

How the data were processed

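The authors deposited 1 scanner file per array, made with Agilent Feature Extraction 10.7.3.1 per the file headers (10.7 per the submitters' processing notes). Each spot has a processed signal, an intensity on a linear scale after background correction by that software, per the file headers. A matrix of log2 values, deposited for 36346 probes, 9 of the 11 hair cell probes among them, came without a statement of its scale or centring in the sources used here. Its column medians ran from -0.0662 to 0.110, and it correlated at 0.872 to 1 with the scanner values centred by slide. It served as an alternative.

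Outlier spots (73) were left out, the spots of a probe were averaged, and the 75th percentile of each array was subtracted from log2 intensity. Probes that were not well above background on 4 or more arrays of any group were dropped, which left 38807. Groups were compared with limma 3.58.1 (lmFit, eBayes; R 4.3.3) on all 14 arrays, with Benjamini-Hochberg adjustment over all kept probes, a threshold of 0.05 and no block. Precision is limited by the number of arrays (median standard error against control 0.164). Names came from RefSeq annotation of GRCz12tu, used for names only. For each list up to 4 called genes with the smallest p at 1x and the 2 brightest uncalled genes were picked. The 3 genes most like each hair cell gene were picked as well. The text describes only some of the genes picked from the lists, and leaves out most of the uncalled ones. The genes and lists were chosen with earlier results of these data known. Normexp used the median signal, as a mean signal was not in the columns used. The fit was tested on simulated data.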

Additional observations from a re-analysis of the deposited data

Results flagged for a closer look

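Of 33 groups of 4 or 5 arrays (11 probes in 3 groups), 2 held an array far from the rest; chance alone gives about 1 such group in 20. For the brighter atoh1a probe, 0.5x replicate 1 was at -2.964, while the other 0.5x arrays lay between -3.716 and -3.548. It is the 0.5x array scanned on day 1, when atoh1a was higher in all groups. For the brighter cdh23 probe, 1x replicate 3 was at -4.553, while the other 1x arrays lay between -5.428 and -5.239. Neither gene was called with or without that array.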

How the results depend on the processing

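Over the alternatives, 540 differences of the 7 genes by 1 probe each were recomputed: 485 kept direction and side of the threshold, 5 lost a call, 12 gained one, no called difference turned its sign, and 38 uncalled ones did. The atoh1b difference at 0.5x was called under every alternative run (adjusted p 0.000447 to 0.0104), and at 1x under all but day 2 alone (0.000785 to 0.0797). The myo6b call at 1x was also lost in the authors' deposited matrix (-0.57, adjusted p = 0.0545; range 0.00664 to 0.309). Of the 7 genes, 2 were called at 1x, and 4 on day 1, 0 on day 2, 1 in the deposited matrix, 1 without control replicates 1 and 2 (chosen after seeing the data), and 1 to 3 when single arrays were left out. At 0.5x 1 was called, 4 on day 1, and 1 to 2 without single arrays. Between 1x and 0.5x none was called, and 1 without control replicates 1 and 2. Of the 47 other hair cell genes, 13 were called at 1x, 23 on day 1, 1 on day 2, 1 without those 2 arrays, and 3 to 16 without single arrays. At 0.5x 4 were called, 1 with normexp, 2 without the filter, 17 on day 1, 0 on day 2, 0 without those 2 arrays, and 1 to 12 without single arrays. Between 1x and 0.5x 1 was called, 2 with quantile normalization, 2 with probes well above background on all arrays, 0 with slide as a block, 2 with scan day as a block, 0 on day 1, 0 in the deposited matrix, 5 without those 2 arrays, and 0 to 7 without single arrays. Of the 7 genes, the count of 1 at 1x came without control replicate 2, and that of 2 at 0.5x without control replicate 3 or 4. Calls over all 38807 probes moved with the setting too. At 1x they were about 11180, 1556 on day 2, 4277 without those 2 arrays, and 5964 to about 13010 without single arrays. At 0.5x they were 3603, 834 on day 2, 606 without those 2 arrays, and 1113 to 9660 without single arrays. Between 1x and 0.5x they were 1583, 728 with slide as a block, 3246 without those 2 arrays, and 704 to 4636 without single arrays. A single-day fit has fewer arrays, and day 1 holds 1 array at 0.5x. Other causes were not tested.

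Same-numbered replicates did not all deviate together (r -0.224 to 0.493 over 13 pairs, 7 of them over 0.1), so the numbers were not taken as pairs. With the replicate block, 2, 1 and 0 of the 7 genes were called at 1x, at 0.5x and between them, and 12, 3 and 2 of the 47. These counts use 1 probe per gene; the dimmer atoh1a probe was called between 1x and 0.5x with the replicate block (0.72, adjusted p = 0.038), and with normexp so were the dimmer cdh23 probe at 1x (-0.48) and the third myo7aa probe between 1x and 0.5x (-0.41, adjusted p = 0.0386).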
